A study of Mus musculus with 6 samples.

Results

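The EGF receptor family and its ligands were examined in ID8-M and in parental ID8, the mouse ovarian cancer line from which ID8-M was derived. The genes followed were the receptors Egfr, Erbb2 and Erbb3, the ligands Areg, Ereg, Btc, Hbegf, Tgfa and Epgn, and the receptor inhibitor Errfi1. They were found as every probe of the array that the platform annotation gives 1 of these 10 symbols, which yielded 17 of 45281 probes and 9 of the 19057 genes named on the array. Areg was not analysed here, since no probe carries its symbol in the annotation used. For ID8-M, 3 samples were hybridised, and for parental ID8 another 3. Per the labels, ID8-M comes from parental ID8 cells that were placed intraperitoneally in female C57BL/6 mice aged 8 weeks, were recovered from ascites 12 weeks later, and were expanded in culture from picked clones. It is therefore 1 derived line, and the labels do not say how many mice or clones contributed to it. The cells of both lines were cultured with 4% serum and with insulin, transferrin and selenite, and no treatment is named. Total RNA was measured on 1 Illumina bead chip, with ID8-M at positions D to F and parental ID8 at A to C, so chip position and line cannot be told apart. Nothing in the labels says that the 3 samples of a line were separate cultures, so the p-values below measure the spread between these samples, which may be technical.

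EGF family ligands are made as membrane proteins and are cut off the cell surface by metalloproteases. They bind EGFR, which pairs with another EGFR or with ERBB2, a partner that has no known ligand of its own, or with ERBB3, whose own kinase is weak. The activated receptors signal through RAS and ERK and through PI3 kinase and AKT, and inhibitors such as ERRFI1, which is itself induced by the signal, dampen them. In ovarian and other epithelial cells this family drives proliferation and migration.

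Between 16386 and 17186 probes were detected per array at a detection p under 0.05. Over the 16221 probes tested, Pearson's r was 0.993 to 0.995 within a line and 0.967 to 0.970 between lines. Each probe of the family was read from 22 to 61 beads per array, with a standard error over beads of at most 5.43% of the intensity. Of the 8 epithelial markers with a probe, 6 were detected on all arrays of ID8-M and 6 on all arrays of parental ID8, the keratins Krt7, Krt8, Krt18 and Krt19 among them, while Epcam was detected on no array. The leukocyte markers Ptprc, Adgre1, Csf1r, Lyz2 and Itgam were detected on no array, and Cd14 and Cd3e on all 6. The keratin genes rose in ID8-M, Krt7 by 4.38-fold (limma adjusted p = 7.75e-07), as did the mesothelial and urothelial gene Upk3b, by 2.66-fold on its brightest probe. By the brightest probe of each gene, the summed intensity of the 8 epithelial markers lay between 35852 and 40413 in ID8-M and between 23080 and 25255 in parental ID8. That of the 6 fibroblast markers lay between 7583 and 7866 in ID8-M and between 5463 and 5822 in parental ID8. Of these 6, Col1a1 and Dcn, a matrix proteoglycan gene, were detected on all arrays, and Dcn rose by 1.52-fold on its brightest probe (limma adjusted p = 0.000874). Pdgfra, Pdgfrb, Col1a2 and Thy1 were detected on no array. The endothelial marker Pecam1 was detected on 3 ID8-M arrays and on 0 parental arrays by 1 of its 3 probes, at least 1.47-fold higher in ID8-M, while Cdh5 and Vwf were detected on no array. The 5 endothelial markers summed to between 730 and 787 in ID8-M and between 705 and 740 in parental ID8. The 8 leukocyte markers summed to between 1429 and 1523 in ID8-M and between 1627 and 1661 in parental ID8. All these sums are of deposited intensities without background subtraction. Array medians were 138.7 to 148.2, so markers that were not detected add background to each sum. Of the detected leukocyte markers, Cd14 was 1.28-fold lower in ID8-M (limma adjusted p = 0.0243), while Cd3e did not pass (limma adjusted p = 0.355). The part of these marker differences in the results below was not tested. Fewer cells of a kind and less RNA per cell cannot be told apart in such bulk samples.

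Ligand and receptor genes of the family changed in ID8-M relative to parental ID8, and the call of the inhibitor gene depended on the processing. The ligand gene Btc was 1.52-fold higher in ID8-M, whereas Erbb2 was 1.57-fold lower. The ligand gene Epgn, near the limit of detection in parental ID8, was higher in ID8-M by at least 1.59-fold after background correction. Without that correction its log2 difference was 0.21. The inhibitor gene Errfi1 was 1.3-fold lower, a call lost under 6 of 16 other settings. The transcripts of Egfr and of the ligand Hbegf did not pass the test in either direction. Erbb3, Ereg and Tgfa were at the background of the array in both lines. Of the 17 probes 10 were tested, which required detection on all 3 arrays of at least 1 line, and 4 of these 10 passed (limma, Benjamini-Hochberg adjusted p under 0.05), 2 of them higher and 2 lower in ID8-M. Over all 16221 tested probes, 28.4% passed, 13.6% higher and 14.8% lower. By gene, 4 of 6 tested members passed, against 30.8% of all 8933 tested genes, and 6 genes are too few to read a difference from that share.

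**Figure D1:**
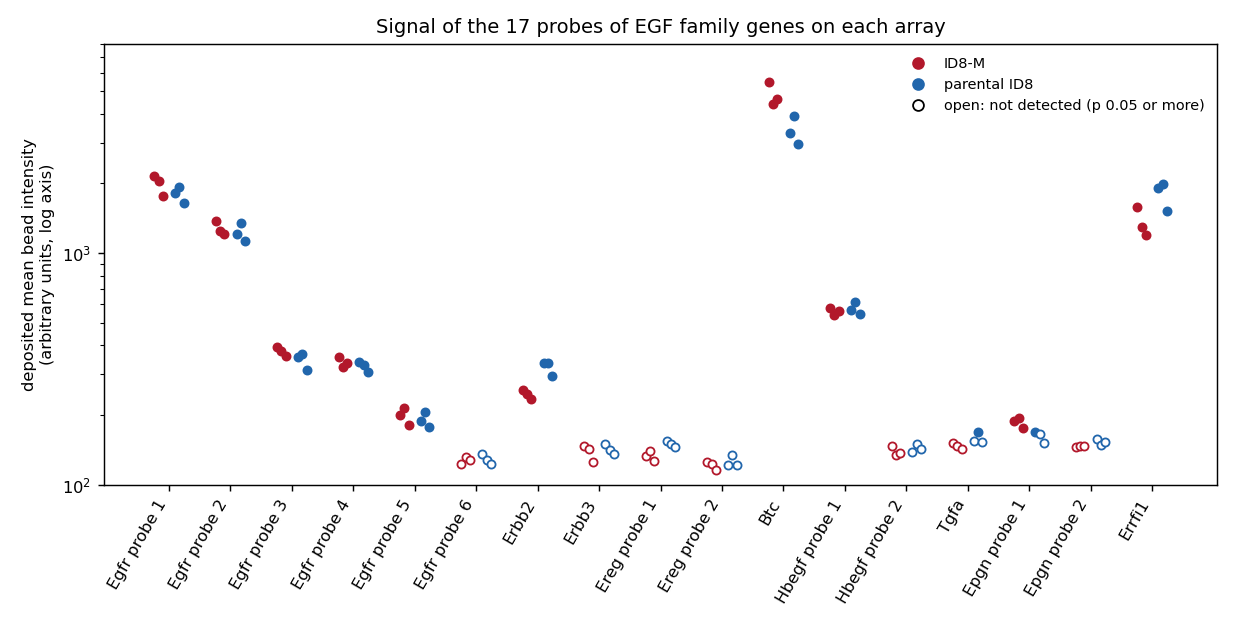
Deposited mean bead intensity (arbitrary units, log axis) of the 17 probes on each of the 3 ID8-M arrays (red, left of each pair) and the 3 parental ID8 arrays (blue, right), with open circles for arrays on which the probe was not detected. Among the tested probes, Btc, Epgn probe 1 and Erbb2 separate the lines, while the ID8-M values of Hbegf probe 1 (540 to 578) overlap the parental values (543 to 613). Ereg probe 1, Tgfa and the other Epgn probe, near background and not tested, also separate the lines, with lower values in ID8-M.

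The sequences just before the annotated gene starts of Epgn and Btc, the ligand genes that rose, and of Erbb2, the receptor gene that fell, are given for reference. Each runs 5′ to 3′ on the strand of its gene, over the 250 bases before the start of the gene in RefSeq (GRCm38.p6). Epgn lies at chr5:91027267-91027516 on the plus strand, Btc at chr5:91402995-91403244 on the minus strand, and Erbb2 at chr11:98412234-98412483 on the plus strand. Capitals mark a match to 1 of 3 motifs searched on both strands, the AP-1 motif TGANTCA, the GC box GGGCGG and the TATA box TATAAA.
Epgn: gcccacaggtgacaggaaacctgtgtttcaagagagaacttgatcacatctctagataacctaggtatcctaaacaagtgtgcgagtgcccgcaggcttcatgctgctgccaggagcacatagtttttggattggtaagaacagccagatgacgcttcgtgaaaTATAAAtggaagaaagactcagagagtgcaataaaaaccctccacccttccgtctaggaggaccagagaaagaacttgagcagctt
Btc: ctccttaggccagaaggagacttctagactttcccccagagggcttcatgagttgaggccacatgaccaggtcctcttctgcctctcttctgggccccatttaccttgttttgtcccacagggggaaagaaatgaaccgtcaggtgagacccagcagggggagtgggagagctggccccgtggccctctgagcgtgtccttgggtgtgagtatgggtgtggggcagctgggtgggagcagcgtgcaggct
Erbb2: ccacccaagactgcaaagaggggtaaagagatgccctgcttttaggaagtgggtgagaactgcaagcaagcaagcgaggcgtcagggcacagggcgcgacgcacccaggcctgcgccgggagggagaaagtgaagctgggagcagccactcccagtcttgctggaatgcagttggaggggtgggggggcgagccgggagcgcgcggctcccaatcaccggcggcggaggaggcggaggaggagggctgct
Only the Epgn window held a match among these 3, 1 match to the letters TATAAA. Whether it acts as a TATA box was not tested. Over all 32851 promoter windows of this length in the table, 12.4% held a TATAAA match, 6.7% a TGANTCA match and 32.7% a GGGCGG match. The GC content was 46.8% before Epgn, 59.6% before Btc and 66% before Erbb2, against a median of 52.4% over all windows. These matches describe letters in a window and were not tested against the expression values.

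Among the receptors, Erbb2, which encodes the ligand-less partner of the family, was read by 1 probe. Its deposited intensities were 256, 246 and 235 in ID8-M, against 334, 335 and 294 in parental ID8. All 3 ID8-M values lay below all 3 parental values. After background correction and quantile normalization the log2 level was 7.00 ± 0.03 in ID8-M and 7.65 ± 0.06 in parental ID8 (SD, n = 3 each). The log2 difference was −0.65 ± 0.08 (SE), with a 95% confidence interval of −0.83 to −0.47 (limma adjusted p = 0.00054). Without background correction it was −0.35, still called.

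Egfr, the founding receptor of the family, had 6 probes, of which 5 were tested and none passed. The brightest, annotated to the transcript NM_207655, gave intensities of 2151, 2042 and 1762 in ID8-M, against 1820, 1935 and 1642 in parental ID8. These deposited values overlapped between the lines. The normalized log2 levels of this probe averaged 10.90 ± 0.10 in ID8-M and 10.68 ± 0.05 in parental ID8 (SD, n = 3 each) and did not overlap between the lines, as was the case for 44.6% of all tested probes. Its log2 difference was 0.22 ± 0.09 (SE), with a 95% confidence interval of 0.02 to 0.42 (limma adjusted p = 0.0946). The call of Egfr depended on the setting. This probe passed in 3 of 16 other processing settings, without background correction (adjusted p = 0.0235), in the authors' normalized table (0.0263) and with trend and robust variance moderation (0.0272). The range of its adjusted p over the 16 was 0.0235 to 0.233.

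The other Egfr probes also had differences above 0, between 0.11 and 0.22 on the log2 scale. A second NM_207655 probe, with intensities of 201, 214 and 181 in ID8-M and 188, 205 and 177 in parental ID8, had a difference of 0.22 ± 0.15 (SE, limma adjusted p = 0.301). It was 0.08 without ID8-M 2, 0.33 without ID8-M 3 and 0.08 without background correction, and was called in none of the 16 other settings. The pair of probes annotated to NM_007912, another Egfr transcript, gave 0.21 ± 0.08 (limma adjusted p = 0.0853) and 0.11 ± 0.08 (limma adjusted p = 0.357). The first of this pair passed with cyclic loess normalization, at 0.27 (limma adjusted p = 0.0384), and the second in no other setting. In the reported setting the differences of the NM_007912 probes lay at and below those of the NM_207655 probes, and none of the 4 passed. This order depended on the setting. Without background correction the first NM_007912 probe had 0.14, above the 0.08 of the second NM_207655 probe. A probe with no accession had 0.12 ± 0.08 (limma adjusted p = 0.303), and the sixth, annotated to AK087861, was detected on no array.

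Erbb3, which encodes the receptor with the weak kinase, had 1 probe and was detected on no array. Its intensities were 146, 142 and 126 in ID8-M and 150, 142 and 135 in parental ID8, within the range of undetected probes. Erbb4, a family receptor outside the set, was also detected on no array by either of its 2 probes. The receptor genes above background in both lines were thus Egfr and Erbb2.

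Btc, which encodes betacellulin, a ligand that binds EGFR and ERBB4, was detected on all 6 arrays by its 1 probe. Its intensities were 5504, 4424 and 4629 in ID8-M, against 3298, 3924 and 2959 in parental ID8. All 3 ID8-M arrays exceeded all 3 parental arrays. The log2 level was 12.24 ± 0.14 in ID8-M and 11.64 ± 0.17 in parental ID8 (SD, n = 3 each), a difference of 0.60 ± 0.12 (SE) with a 95% confidence interval of 0.33 to 0.87 (limma adjusted p = 0.00628). Leaving out any 1 array kept the call, with differences between 0.53 and 0.70.

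Epgn, which encodes epigen, a ligand of EGFR known from epithelia, passed by 1 of its 2 probes, close to the limit of detection. The brighter probe had intensities of 188, 194 and 176 in ID8-M, against 169, 166 and 151 in parental ID8. It was detected on 3 ID8-M arrays and on 1 parental array, so it entered the test through ID8-M. In parental ID8 its signal lay near the floor. The log2 level was 6.11 ± 0.15 in ID8-M and 5.40 ± 0.15 in parental ID8 (SD, n = 3 each), and the parental mean lay at the mean of the lowest detected signals of those arrays, 5.41. The difference was 0.72 ± 0.11 (SE, limma adjusted p = 0.00236). Set against the lowest detected signal instead, the level in ID8-M was higher by at least 1.59-fold. Without background correction the log2 difference was 0.21, and with an offset of 50 it was 0.44. The other Epgn probe was detected on no array, with intensities of 145, 147 and 146 in ID8-M and 157, 148 and 153 in parental ID8.

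Hbegf, which encodes the heparin-binding ligand, had overlapping signal in the lines by its 1 tested probe. Its intensities were 578, 540 and 564 in ID8-M and 565, 613 and 543 in parental ID8. The log2 difference was 0.01 ± 0.08 (SE), and its 95% confidence interval of −0.18 to 0.20 leaves room for a change of that size either way (limma adjusted p = 0.936). A second Hbegf probe, annotated to AK052084, was detected on no array. Hbegf lies on chromosome 18. The median log2 difference of that chromosome was −0.19 over 216 tested genes, and relative to it the difference of Hbegf was 0.20 (limma adjusted p = 0.126).

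Ereg, which encodes epiregulin, was detected on no array by either of its 2 probes. The brighter gave 133, 140 and 127 in ID8-M and 155, 149 and 146 in parental ID8, both at background, so no fold is given. Tgfa, which encodes transforming growth factor alpha, a high-affinity EGFR ligand, was detected on 1 of 6 arrays, parental 2. Its intensities were 151, 147 and 143 in ID8-M and 154, 169 and 152 in parental ID8. The ligand transcripts above background on all arrays were those of Btc and Hbegf.

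Errfi1, which encodes an intracellular inhibitor of EGFR and ERBB2 kinases also called Mig6, fell in ID8-M by a small margin. Intensities were 1585, 1297 and 1201 in ID8-M, against 1901, 1980 and 1525 in parental ID8. The deposited values of the lines overlapped, since ID8-M 1 exceeded parental 3, but the normalized values did not. The log2 level was 10.30 ± 0.16 in ID8-M and 10.68 ± 0.14 in parental ID8 (SD, n = 3 each), a difference of −0.37 ± 0.11 (SE) with a 95% confidence interval of −0.63 to −0.12 (limma adjusted p = 0.0389). Errfi1 lies on chromosome 4. The median log2 difference of that chromosome was −0.19 over 551 tested genes, and with it removed the difference of Errfi1 was −0.18 and was not called (limma adjusted p = 0.286). The call was also lost without ID8-M 2 (−0.34), ID8-M 3 (−0.32), parental 1 (−0.34) or parental 2 (−0.32), with adjusted p between 0.11 and 0.118, and when all 45281 probes were tested (0.0868).

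**Figure D2:**
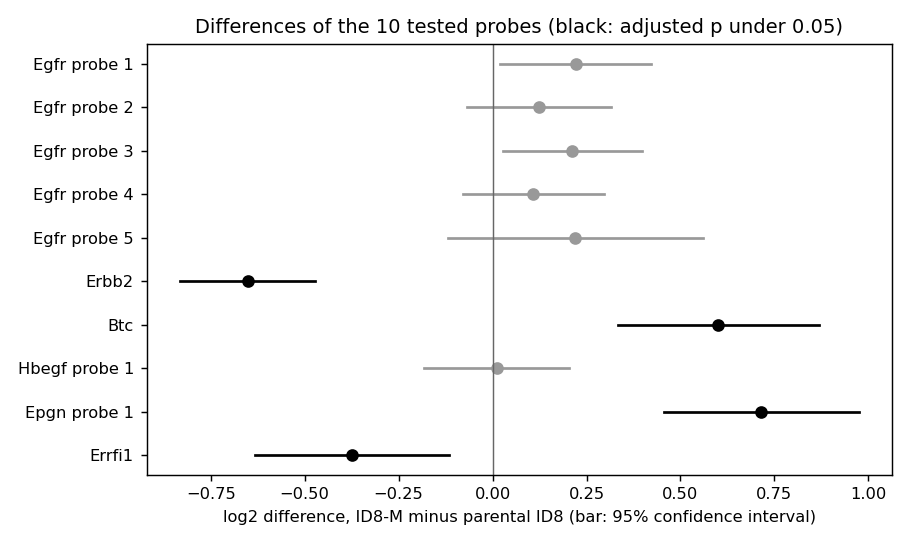
Log2 difference, ID8-M minus parental ID8, of the 10 tested probes with its 95% confidence interval, in black where the adjusted p was under 0.05. Erbb2 (−0.65) and Errfi1 (−0.37) lie left of 0, Btc (0.60) and Epgn (0.72) right of it, and the 5 Egfr probes lie between 0.11 and 0.22 without passing.

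**Figure D3:**
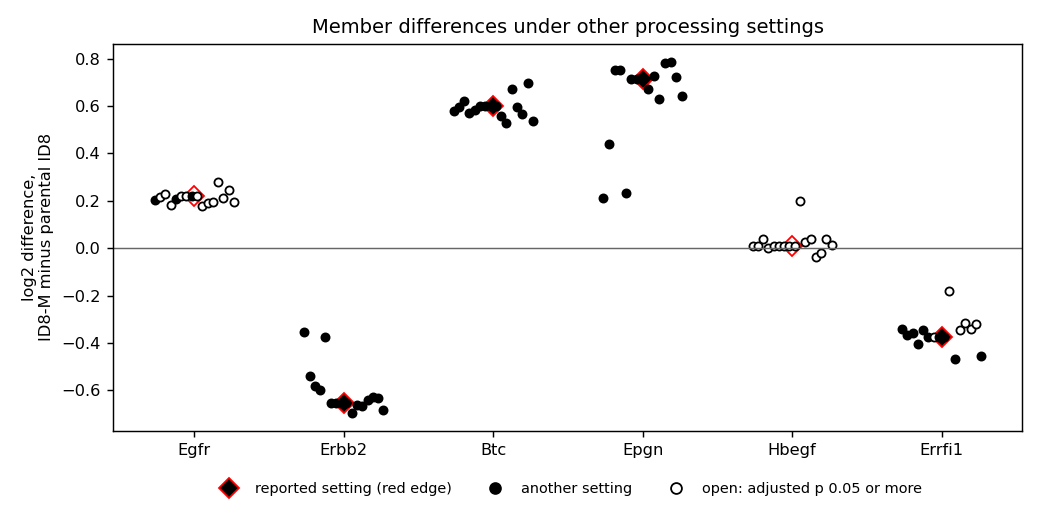
Log2 difference, ID8-M minus parental ID8, of the 6 tested member genes as reported (diamonds) and under other processing settings or with 1 array left out (circles, filled where the adjusted p was under 0.05). Btc stays between 0.53 and 0.70, Erbb2 between −0.70 and −0.35 and Epgn between 0.21 and 0.79, all called, whereas Errfi1 loses its call under 6 of 16 settings.

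The members that changed were set beside their neighbours in the gene order of the GRCm38.p6 annotation, 10 protein-coding genes to each side, a choice made after the values were seen. Epgn and Btc are neighbours on chromosome 5, in the cluster of EGF family ligands that also holds Ereg and Areg. Of the 20 neighbours of Btc 7 were tested, and 2 were called higher and 0 lower. The 2 were Epgn and Cxcl1, a neutrophil chemokine, which no parental array detected and whose level in ID8-M was higher by at least 23-fold. The 5 others had differences between −0.13 and 0.21. Chromosome 5 had a median of 0.04 over 614 tested genes, and with it removed Btc had a difference of 0.56 and Epgn of 0.67, both still called.

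Erbb2 fell, while none of the tested genes around it was called lower. Of its 20 neighbours on chromosome 11, 8 were tested, of which 2 were called higher and 0 lower. Stard3, a cholesterol transporter gene, had a log2 difference of 0.46 ± 0.11 (SE, limma adjusted p = 0.0177). Mien1, the gene next to Erbb2 on one side, had 0.11 ± 0.08 (limma adjusted p = 0.328), and Pgap3, on the other side, was not tested. Around Errfi1, 8 of 20 neighbours were tested, with 0 called higher and 2 lower and a median difference of −0.06. Around Egfr, also on chromosome 11, 10 of 20 were tested, with 2 higher and 1 lower. Over all tested genes, 15.4% were called higher and 15.3% lower.

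**Figure D4:**
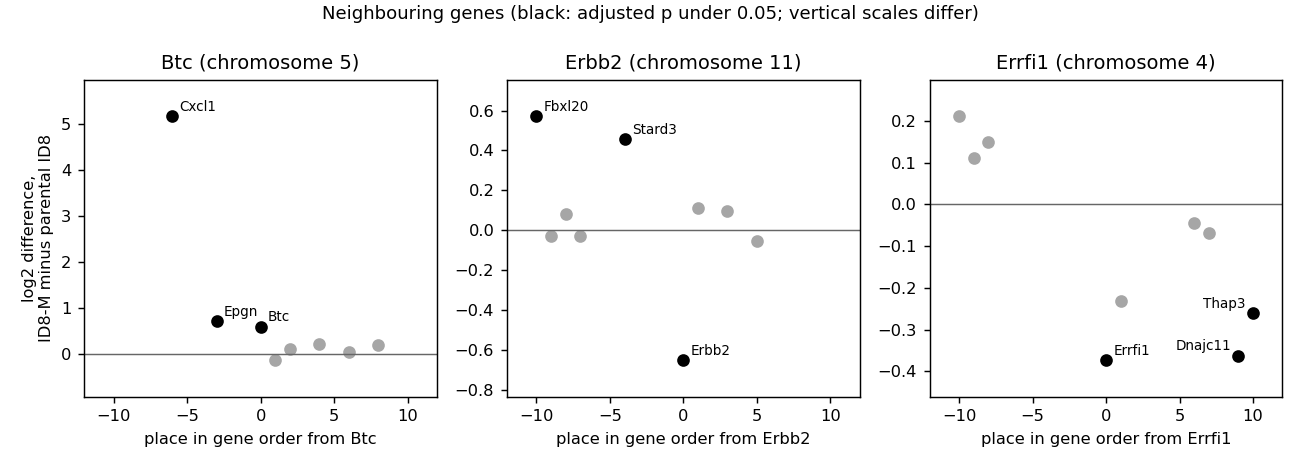
Log2 difference, ID8-M minus parental ID8, of the tested genes among the 10 on each side of Btc, Erbb2 and Errfi1, by place in the gene order, in black where the adjusted p was under 0.05. Epgn and Cxcl1, drawn at its measured difference of 5.18, are the called neighbours of Btc, Erbb2 lies at −0.65 between neighbours at or above −0.06, and Errfi1 at −0.37 has called neighbours to its right.

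The wider pathway was followed in 6 lists of other genes, 125 in all, of which 111 had a probe and 79 were tested. Of these, 13 were called higher and 13 lower in ID8-M, which is near the shares of 15.4% and 15.3% over all genes. The median log2 difference was −0.01 over the lists and −0.03 over all tested genes. Each gene is given by its brightest tested probe.

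Genes of negative feedback and receptor downregulation included the largest change. Of 27 listed, 19 were tested, and 3 rose and 0 fell, with a median difference of 0.06. Sh3kbp1, which encodes CIN85, an adaptor that joins the ubiquitin ligase CBL in the endocytosis of activated EGFR, had intensities of 783, 739 and 750 in ID8-M, against 262, 346 and 256 in parental ID8. No ID8-M value came near the parental range. The log2 difference was 1.98 ± 0.16 (SE, limma adjusted p = 5.01e-05), or 1.39 without background correction. A second tested probe gave 1.99. Another, undetected in parental ID8, was at least 3.73-fold higher after background correction, with a log2 difference of 0.78 without it. Of the untested probes, 1 detected only on parental 3 was lower in ID8-M (142, 146 and 131 against 156, 153 and 161). The other, detected on no array, was higher (155, 150 and 150 against 128, 138 and 129). Dusp7, an ERK phosphatase gene, rose by 0.52 ± 0.11, and Lrig3, of a family of membrane regulators of receptor kinases, by 0.41 ± 0.09. Dusp6, the ERK phosphatase gene often read as a measure of ERK activity, had a difference of −0.07 ± 0.10 (limma adjusted p = 0.628), a gene added after its value was seen.

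Among adaptors and effectors of the receptors, 21 of 35 were tested, 6 rose and 5 fell, with a median of −0.06. Gab1, a docking protein that links EGFR to PI3 kinase and SHP2, had intensities of 793, 733 and 687 in ID8-M, against 1285, 1291 and 1168 in parental ID8, and fell by 0.82 ± 0.08 (limma adjusted p = 0.000122), or by 0.51 with the median of its chromosome removed, still called. Map2k1, the ERK kinase MEK1, fell by 0.55 ± 0.12, and Eps8, an actin regulator and EGFR substrate, fell by 0.53 ± 0.08. Without background correction Map2k1 fell by 0.31 and Eps8 by 0.34, both still called. Akt2, a kinase downstream of PI3 kinase, rose by 0.91 ± 0.10, although by 0.33 without background correction. Stat5a, a transcription factor activated by the receptors, was detected on 3 ID8-M arrays and 1 parental array, so it entered the test through ID8-M. After background correction its level in ID8-M was higher by at least 1.66-fold, while the log2 difference without that correction was 0.24. Its other probe, detected on 2 arrays of each line, was not tested and had log2 levels of 5.43 in ID8-M and 5.37 in parental ID8. Pik3r1, the regulatory subunit of PI3 kinase, rose by 0.46 ± 0.09.

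Genes induced through the receptor and ERK moved both ways. Of 27 listed, 16 were tested, 3 rose and 4 fell, with a median of −0.03. Fos, an immediate early transcription factor, had intensities of 215, 191 and 229 in ID8-M, against 155, 164 and 157 in parental ID8. It was detected on 3 ID8-M arrays and 1 parental array, so it entered the test through ID8-M. After background correction its level in ID8-M was higher by at least 2.15-fold, with a measured log2 difference of 1.25. Without that correction the log2 difference was 0.41. Ccnd1, cyclin D1, rose by 0.63 ± 0.08. Etv5, a transcription factor induced by ERK, rose by 0.51 ± 0.10, or by 0.25 without background correction, while its other tested probe had 0.15 and did not pass. Ier3, an early response gene, had intensities of 8913, 8633 and 8514 in ID8-M, against 12954, 13794 and 13214 in parental ID8, and fell by 0.53 ± 0.08 (limma adjusted p = 0.00164). Klf6, a zinc finger transcription factor, fell by 0.40 ± 0.09, a call lost without ID8-M 3 (adjusted p = 0.0514). Ptgs2, cyclooxygenase 2, was detected on 1 ID8-M array and 3 parental arrays, so its test rested on detection in parental ID8. Its fall after background correction was 1.36-fold or more. Without that correction the log2 difference of Ptgs2 was −0.19, still called. The other Ptgs2 probe was detected on no array.

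In the list of receptor endocytosis and recycling, 15 of 18 were tested, and 0 rose and 3 fell, with a median of −0.03. Ap2m1, a subunit of the clathrin adaptor AP2, fell by 0.43 ± 0.12, Eps15, an endocytic adaptor and EGFR substrate, by 0.38 ± 0.10, and its relative Eps15l1 by 0.36 ± 0.09. The call of Ap2m1 was lost without ID8-M 2, ID8-M 3, parental 2 or parental 3, that of Eps15 without ID8-M 1, ID8-M 2, parental 1 or parental 2, and that of Eps15l1 without ID8-M 2, parental 1 or parental 2. Those of Eps15 and Eps15l1 were also lost with the median of their chromosome removed (limma adjusted p = 0.214 and 0.71), and Eps15 fell by 0.24 without background correction. For ligand shedding, 7 of 12 were tested, with 1 rise and 1 fall and a median of −0.03. Adam17, the main sheddase of EGFR ligands, had a log2 difference of −0.03 ± 0.08 (limma adjusted p = 0.808), and was added to the named genes after its value was seen. Adam15 rose by 0.34 ± 0.11 (limma adjusted p = 0.0479) and Adam9 fell by 0.36 ± 0.11 (limma adjusted p = 0.046). Each call was lost without 1 of 5 of the 6 arrays, the exceptions being parental 2 for Adam15 and parental 3 for Adam9. Another Adam15 probe, annotated to the same transcript, was lower in ID8-M but was not tested. Detected on 0 ID8-M and 2 parental arrays, it gave intensities of 147, 136 and 141 in ID8-M and 171, 154 and 177 in parental ID8. With the median of its chromosome removed, Adam9 had a difference of −0.06 and was not called (limma adjusted p = 0.766), and it was also not called with cyclic loess normalization (limma adjusted p = 0.0605).

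Of the 6 other EGF family genes listed, 1 was tested. Nrg1, a ligand of ERBB3 and ERBB4, was detected on 3 ID8-M and 2 parental arrays and had a log2 difference of 0.08 ± 0.15 (limma adjusted p = 0.709), which was −0.07 without parental 1 and 0.39 with the median of its chromosome removed. Egf itself was detected by 1 of its 2 probes on 2 ID8-M arrays and 1 parental array and was not tested.

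**Figure D5:**
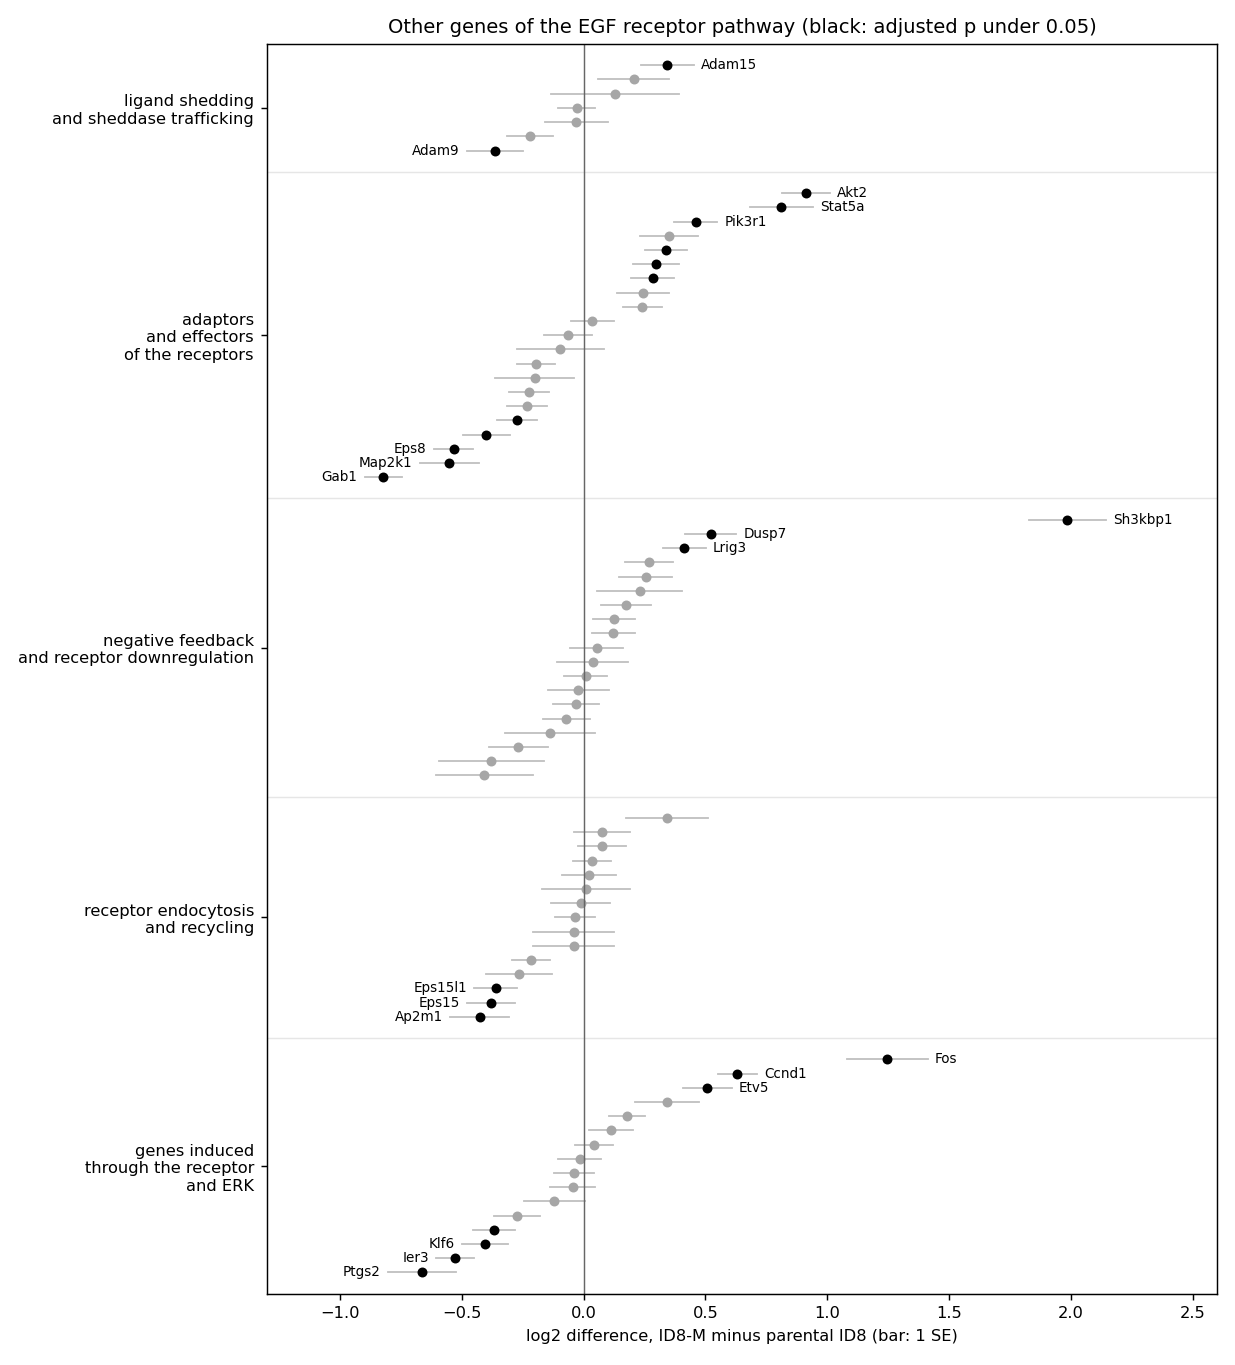
Log2 difference, ID8-M minus parental ID8, of each tested gene in 5 lists of the EGF receptor pathway, with bars of 1 SE and in black where the adjusted p was under 0.05. Sh3kbp1 (1.98) lies farthest from 0 in these lists, and called genes lie on both sides of 0 in 3 of the 5 lists.

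Erbb2 had the smallest adjusted p of the member genes, and the genes most like it across the 6 arrays were found by Pearson correlation over 8932 other genes. The 5 highest were Idh3a, Frmd6, Vegfc, Ripply1 and Zwint, each with r above 0.99. The first 4 were called lower in ID8-M, with log2 differences of −0.77, −0.52, −0.85 and −2.42, while Zwint had −0.11 and did not pass (limma adjusted p = 0.305). As many as 1107 genes had r above 0.9, since any gene that separates the lines in the same direction correlates with Erbb2 over so few arrays.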

How the data were processed

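Total RNA of 3 ID8-M and 3 parental ID8 samples was hybridised as biotinylated cRNA to Illumina bead arrays, per the labels. For each probe, the deposited scanner table lists bead intensity (mean over beads), bead number, standard error and detection p-value for the 6 arrays. Per the file headers this deposited intensity is not normalized, and its values show no background subtraction. Steps of the deposited detection p-value correspond to 936 negative controls. The authors' second table holds intensities on a linear scale that follow plain quantile normalization of the first to within 1.65%. The scanner software was not stated.

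From the deposited intensities, log2 values were made with neqc of limma 3.58.1 in R 4.3.3 (background from detection p-values, offset 16, quantile normalization). A probe was tested if its detection p was below 0.05 on every array of 1 or both lines, with limma (lmFit and eBayes, two-sided, Benjamini-Hochberg adjustment over 16221 probes, 4 residual degrees of freedom), and an adjusted p under 0.05 is called. The procedure was tested on simulated data. Of 45281 probes 34885 have 1 symbol, 18 several and 10378 none, and 34807 matched a RefSeq gene of GRCm38.p6. A gene is given by its brightest tested probe. A probe detected on at most 1 array of a line is given as a bound, "at least N-fold", the brighter line's mean over a floor averaged across the dimmer line's arrays, which is the lowest detected signal of an array or the probe's own signal if higher. Such a bound is on the background-corrected scale, and without that correction the difference can be smaller.

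The members and lists were chosen with earlier results of these data known. The named pathway genes are, per list, up to 3 called rises and 3 called falls with the largest difference, or, with no call, the gene of smallest adjusted p, and always Erbb4, Egf and Nrg1. Shared patterns were ranked for the member with the smallest adjusted p. Alternatives changed the background, normalization, filter, variance moderation, source table, replicate block, chromosome median and arrays used. An exact permutation test of 3 against 3 arrays cannot go below 0.1 and was not used.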

Additional observations from a re-analysis of the deposited data

How the results depend on the processing

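The calls of Btc and Erbb2 held under all 16 other settings and that of Epgn under the 15 in which its probe was tested. Errfi1 kept its call in 10 of 16. It was lost with all probes tested (−0.37, adjusted p = 0.0868), where more tests share the adjustment, and with the chromosome median removed (−0.18), and over the arrays left out in turn its difference ranged from −0.47 to −0.32. The brightest Egfr probe gained a call without background correction (0.21), in the authors' normalized table (0.21) and with trend and robust moderation (0.22); what made it pass was not tested. Hbegf, never called, changed sign without ID8-M 3 (−0.036) and without parental 1 (−0.019), and with 1 array left out ranged from −0.036 to 0.040. The number of family probes called higher was 2. It was 3, with an Egfr probe added, without background correction, in the authors' normalized table, with trend and robust moderation and with cyclic loess, where that probe was an NM_007912 one (0.27), and 1 when a detection p below 0.01 was required on every array, which removes Epgn from the test. The number called lower was 2, and 1 with all probes tested or with the chromosome median removed, and 1 to 2 with 1 array left out. With all probes tested, Adam9, Adam15 and Ap2m1 also lost their calls (adjusted p = 0.104, 0.103 and 0.0769). The pathway genes called numbered 26, and 16 to 20 with 1 array left out, with the lowest counts without ID8-M 2 (17) and ID8-M 3 (16). All probes called numbered 4610, and between 3437 and 5337 under the alternatives, with 47.8% of calls higher as reported, and 56.9% with cyclic loess. Same-numbered samples of the lines did not deviate together after normalization, with correlations of 0.04, −0.09 and 0.01. Normalization removes shifts shared by a whole array, so these values cannot settle whether the numbers pair the samples. Before normalization, ID8-M 3 and parental 3 each had the lowest median intensity of their line, 138.7 and 140.9. With the replicate number as a block, 3969 probes and 23 pathway genes were called. Of the members the same 4 were called, with limma adjusted p of 0.0201 for Btc, 0.00355 for Erbb2 and 0.00467 for Epgn. Eps15 and Ap2m1 lost their calls with this block (limma adjusted p = 0.0567 and 0.0608). With 3 arrays a line, changes as small as those of Egfr and Hbegf are poorly resolved, and Erbb3, Ereg and Tgfa lay too near background for any statement on change.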
